A study of Mus musculus with 9 samples.

Results

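The genes described are 9 immediate early genes (Egr1, Egr2, Egr3, Fos, Fosb, Jun, Junb, Ier2 and Ier3) and Myc, chosen by name and found by matching these symbols to the gene identifiers of the deposited count table. All 10 were present once among its 56980 genes, and all 10 passed the filter on low counts. They were measured by mRNA sequencing in 9 libraries of cultured mouse oligodendrocyte progenitor cells (OPCs, the dividing precursors of the glia that make myelin), in 3 groups of 3. The p53n group was Trp53 -/- OPCs, labelled control. The BB-p53n DMSO group was Trp53 -/- OPCs that express PDGF-BB, with the solvent DMSO. The BB-p53n EZH2i group was Trp53 -/- OPCs expressing PDGF-BB with 5 µM tazemetostat, an inhibitor of the histone methyltransferase EZH2, for 48 hours. All 3 groups lacked p53 and grew with 10 ng/mL PDGF-AA, insulin and forskolin, an activator of adenylyl cyclase, so none was free of growth factor or cAMP stimulation. Cells with intact Trp53 were not analysed here. The labels describe neither the PDGF-BB construct nor the origin of the replicates. Each p-value therefore reflects the spread among the 3 libraries of a group, and that spread may be technical.

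Immediate early genes are transcribed within minutes of a growth factor, cAMP or depolarisation signal, from factors already present in the cell, and their mRNAs are short-lived. Receptors such as those of PDGF reach them through Ras and the kinase ERK, which phosphorylates the ternary complex factors bound beside SRF on the CArG box, and cAMP reaches them through CREB on the cAMP response element. EGR proteins are zinc finger factors, FOS and JUN proteins pair to form AP-1, and MYC pairs with MAX on the E-box to drive growth and ribosome production. In OPCs, PDGF signalling maintains division and holds back differentiation.

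Promoter sequences were searched for 8 motifs, each on both strands: the CArG box, the full cAMP response element TGACGTCA, its core TGACG (which lies inside the full element), the EGR site GCGNGGGCG, the AP-1 site TGANTCA, the E-box CACGTG, the ETS site CCGGAA and the TATA box TATAAA. RefSeq windows of the 250 bases before the start site (GRCm38.p6) were searched for 6 of the 10 genes. These were Egr2, with 5 start sites, and Fos, Fosb, Jun, Junb and Ier3. Egr1 was left out of the search, and no window was found for Egr3, Ier2 and Myc. The windows of Egr2, Fos and Junb are shown as examples. Bases more than 250 before the start site were not searched, so a motif missing from a window may lie outside it. Whether motifs go with the changes in level was not tested. Each is written 5′ to 3′ in the direction of the gene, with motif matches in capitals, and positions count from the first transcribed base as 0. The coordinates are chr10:67537619-67537868 on the plus strand for the third start site of Egr2, chr12:85473640-85473889 on the plus strand for Fos, and chr8:84978749-84978998 on the minus strand for Junb.
Egr2: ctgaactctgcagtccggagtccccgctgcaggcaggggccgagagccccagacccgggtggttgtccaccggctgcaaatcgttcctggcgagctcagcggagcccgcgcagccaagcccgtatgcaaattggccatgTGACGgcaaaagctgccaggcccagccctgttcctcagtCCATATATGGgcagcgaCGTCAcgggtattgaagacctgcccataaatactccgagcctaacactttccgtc
Fos: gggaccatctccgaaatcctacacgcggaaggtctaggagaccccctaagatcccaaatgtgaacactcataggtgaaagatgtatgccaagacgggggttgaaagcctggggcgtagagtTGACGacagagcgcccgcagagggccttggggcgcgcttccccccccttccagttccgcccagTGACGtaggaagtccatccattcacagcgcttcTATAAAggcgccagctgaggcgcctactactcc
Junb: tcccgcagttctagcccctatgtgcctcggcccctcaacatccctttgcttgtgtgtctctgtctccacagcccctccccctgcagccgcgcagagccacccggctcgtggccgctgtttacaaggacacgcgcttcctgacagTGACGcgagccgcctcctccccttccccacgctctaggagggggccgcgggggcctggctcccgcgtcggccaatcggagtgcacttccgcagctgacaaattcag
The Egr2 window held a CArG box at positions -72 to -63 with cAMP cores on both sides of it, at -111 to -107 and, on the opposite strand, at -55 to -51. A CArG box was in 4 of the 5 Egr2 windows, of which the last 3 overlap and share 1 box, and in 1.48% of 32536 promoter windows of the same length. The Fos window held 2 cAMP cores, at -129 to -125 and -66 to -62, and a TATA box at -33 to -28. The Junb window held 1 cAMP core at -106 to -102. The cAMP core was in 17.85% of all windows and the TATA box in 12.31%. The Fosb window held a cAMP core at -60 to -56 and an EGR site at -50 to -42, the latter found in 4.74% of all windows. The Jun and Ier3 windows held none of the 8 motifs, and the full cAMP response element was in none of the 6 genes' windows. A match is a description of letters in the window and not a measured site.

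Total counts ranged from 19471768 to 34557109 per library, and mitochondrial genes took 4.46% to 5.76% of the counts in p53n, 2.44% to 2.62% with DMSO and 1.34% to 1.54% with the inhibitor. All 12 OPC markers were detected in every group, with summed levels of 9494 to 10030 CPM (counts scaled to library size with TMM) in p53n, 7240 to 7283 with DMSO and 5089 to 5399 with the inhibitor. Between p53n and BB-p53n DMSO 4 of these 12 markers rose and 7 fell, beside 35.3% of all genes called higher and 34% lower. The lineage factor Sox10 went from 1.87 to 2.40 CPM up to 284 to 317, whereas the receptor Gpr17 was at a log2 fold change of -3.85 (mean 1902 against 132 CPM) and the factor Nkx2-2 at -1.26. The summed astrocyte markers lay at 2013 to 2232, 1188 to 1217 and 1264 to 1386 CPM in the same order, and the neuron markers at 2029 to 2060, 1668 to 1819 and 578 to 702. All 11 astrocyte markers were called lower in BB-p53n DMSO than in p53n (all genes 34%), with a median log2 fold change of -2.88. Microglia markers summed to at most 2.96 CPM, with C1qa, C1qc and Tyrobp at 0 counts in all groups, and endothelial and mural markers to at most 23.1 CPM. The p53n and PDGF-BB cells also differed in Xist (2775 to 3098 CPM in p53n, 46.1 to 65.0 in BB-p53n DMSO) and in the Y-linked Ddx3y (0.21 to 0.71 against 43.0 to 53.6 CPM), so PDGF-BB, the solvent and the origin of the cells cannot be told apart in any comparison with p53n. The BB-p53n EZH2i libraries differed from the DMSO libraries in the same genes, with Xist at 2.82 to 17.4 CPM, Ddx3y at 5.85 to 13.2, Uty at 2.50 to 6.61 (21.2 to 27.2 with DMSO) and Kdm5d at 10.4 to 17.9 (40.9 to 48.3 with DMSO). These levels are as counted, and the GC and length trend described below was not removed from them. The labels do not say whether both groups came from 1 culture, so the inhibitor and the origin of the cells cannot be told apart by these labels either. The part of these differences in the results was not tested, and in bulk RNA fewer cells of a type and less RNA per cell cannot be told apart.

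**Figure D1:**
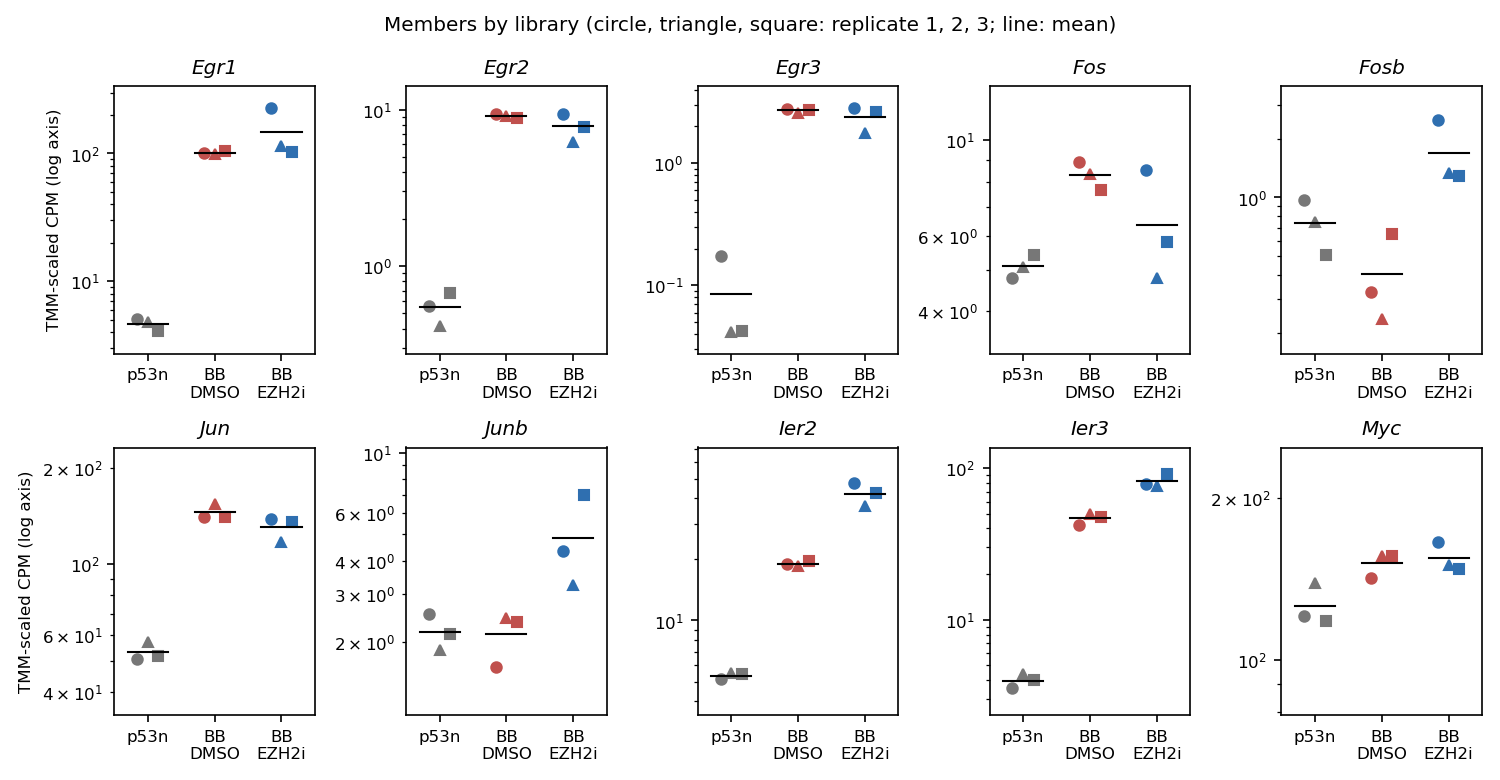
TMM-scaled CPM (log axis, a separate range per gene) of each of the 10 genes in the 9 libraries, with circle, triangle and square for replicates 1, 2 and 3 and a line at the group mean. Egr1, Egr2, Egr3, Jun, Ier2, Ier3 and, by a small gap, Myc lie lower in every p53n library than in every PDGF-BB library. Replicate 1 of BB-p53n EZH2i is the highest of its group for 8 of the 10 genes.

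The first comparison, of BB-p53n DMSO with p53n, asks how p53-null OPCs differ once they express PDGF-BB. The 3 EGR genes, Ier2, Ier3, Jun, Fos and Myc were higher in the PDGF-BB cells, by 21.9-fold for Egr1 and 1.20-fold for Myc. Fosb and Junb did not pass the test. Thus 8 of the 10 genes rose and 0 fell at an adjusted p under 0.05, while over all 17001 genes tested 35.3% were called higher and 34% lower. The median log2 fold change of the 10 genes was 1.64, beside -0.02 over all genes.

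Egr1 (chromosome 18, 34992876 to 34998037, plus strand, GRCm39), the most abundant EGR factor in these cells, was at 5.03, 4.78 and 4.08 CPM in p53n and at 100.5, 99.7 and 105 CPM in BB-p53n DMSO. All 3 PDGF-BB libraries lay far above all 3 p53n libraries, with a log2 fold change of 4.45 (SE 0.37, adjusted p = 2.9e-05). This SE draws on all 9 libraries, among them replicate 1 of the inhibitor group at 225 CPM. Egr2 (chromosome 10, 67371305 to 67378018, plus strand), known from Schwann cell myelination, was at 0.55, 0.42 and 0.67 CPM in p53n and 9.34, 9.08 and 8.87 CPM in BB-p53n DMSO. Its log2 fold change was 4.04 (SE 0.22, adjusted p = 1.2e-12), and the groups did not overlap. Egr3 (chromosome 14, 70314652 to 70320063, plus strand), a close relative induced by the same signals, had 5, 1 and 1 counts in p53n and 93, 87 and 89 counts in BB-p53n DMSO. Its log2 fold change was 4.82 (SE 0.41, adjusted p = 1.8e-09), and 5.94 (SE 0.53) without replicate 1 of p53n. The size of this change is uncertain, since replicates 2 and 3 of p53n lie under the floor of 3 counts per library (0.087 to 0.154 CPM) and the group holds 7 counts in all. The median log2 fold change of the 424 genes on chromosome 14 with an average log2 CPM above 1 was -0.40, opposite in sign to that of Egr3. Egr3 itself, at 0.89, was not among them.

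Fos (chromosome 12, 85520664 to 85524047, plus strand), the founding AP-1 subunit, was at 4.79, 5.07 and 5.42 CPM in p53n and 8.92, 8.34 and 7.67 CPM in BB-p53n DMSO. Every PDGF-BB library was above every p53n library, and the log2 fold change was 0.71 (SE 0.17, adjusted p = 9.6e-04), a much smaller rise than that of the EGR genes. Fosb (chromosome 7, 19036621 to 19043976, minus strand), a paralog of Fos, was at 0.97, 0.75 and 0.50 CPM in p53n and 0.33, 0.24 and 0.65 CPM in BB-p53n DMSO. The groups overlapped in replicate 3 of both, and the log2 fold change of -0.89 (SE 0.45) did not pass the test (adjusted p = 0.0836). Without replicate 3 of BB-p53n DMSO it was -1.38 and passed, so that 1 of the 10 genes was then called lower, beside 34% of all genes with all libraries kept.

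Jun (chromosome 4, 94937271 to 94940459, minus strand), the main partner of FOS proteins, was at 50.7, 57.2 and 51.8 CPM in p53n and 140.5, 154 and 141 CPM in BB-p53n DMSO. The groups did not overlap, and the log2 fold change was 1.45 (SE 0.08, adjusted p = 1.1e-12). Junb (chromosome 8, 85701113 to 85705347, minus strand), which competes with JUN in AP-1 dimers, was at 2.53, 1.87 and 2.14 CPM in p53n and 1.61, 2.46 and 2.37 CPM in BB-p53n DMSO. The groups overlapped throughout, with a log2 fold change of -0.03 (SE 0.27, adjusted p = 0.924). Counting took no account of strand, and Jun shares 232 bases (7.28% of its exon length) with the antisense gene Junos and Junb 173 bases (7.52%) with Prdx2, so reads from those stretches cannot be assigned to either gene of a pair.

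Ier2 (chromosome 8, 85387960 to 85389483, minus strand), a short single-exon gene that encodes a nuclear protein, was at 5.13, 5.49 and 5.42 CPM in p53n and 19.0, 18.5 and 19.5 CPM in BB-p53n DMSO. The log2 fold change was 1.83 (SE 0.11, adjusted p = 1.0e-11), with no overlap. Ier3 (chromosome 17, 36132576 to 36133815, plus strand), an ERK substrate linked to cell survival, was at 3.54, 4.37 and 4.04 CPM in p53n and 42.2, 49.9 and 47.8 CPM in BB-p53n DMSO. This 11.8-fold rise (log2 fold change 3.56, SE 0.11, adjusted p = 2.5e-16) had the smallest adjusted p of the 10 genes. The libraries of each group lay close together.

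Myc (chromosome 15, 61857240 to 61862223, plus strand) was the most abundant of the 10 genes by counts in p53n, at 120.5, 139 and 118 CPM, and stood at 142, 156 and 156 CPM in BB-p53n DMSO. The groups did not overlap, but the gap was small, with a log2 fold change of 0.27 (SE 0.08, adjusted p = 0.00371). After each library's trend of counts on transcript GC content and on exon length was removed, the same change was 0.16 (adjusted p = 0.0605) and 7 of the 10 genes rose and 0 fell, beside 35.7% of all genes called higher and 36.1% lower. The other 7 genes that rose kept log2 fold changes of 0.57 (Fos) to 4.70 (Egr3) after this removal.

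**Figure D2:**
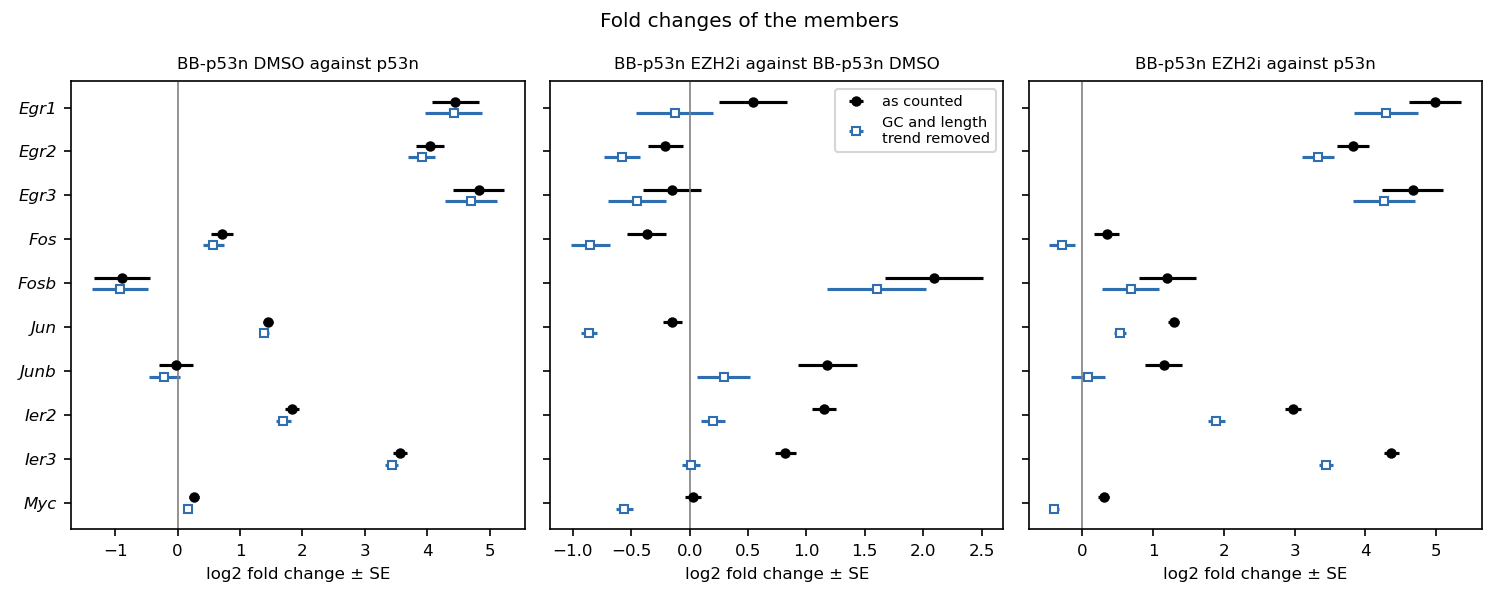
Log2 fold change ± SE of each of the 10 genes in the 3 comparisons, as counted (black) and after removal of each library's GC and length trend (blue), with a vertical line at 0 and a separate axis range in each panel. In the first panel both estimates lie close together, whereas in the second Junb, Ier2 and Ier3 move from 1.18, 1.15 and 0.82 to 0.29, 0.20 and 0.01.

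The second comparison, of BB-p53n EZH2i with BB-p53n DMSO, asks how the PDGF-BB cells differ after EZH2 is inhibited. Fosb, Junb, Ier2 and Ier3 were higher with the inhibitor as counted, by 4.25-fold, 2.27-fold, 2.22-fold and 1.76-fold, and of these Fosb alone was also called after the trend described next was removed. The 3 EGR genes, Fos, Jun and Myc did not pass the test. So 4 of the 10 genes rose and 0 fell, beside 37.3% of all genes called higher and 35.6% lower, which makes the count of rises close to the background. The values of this comparison followed the base composition of the transcripts: over 12783 genes the log2 fold change had a Spearman correlation of 0.73 with GC content and -0.43 with length, and its median ran from -1.41 in the tenth of genes with the lowest GC content to 0.83 in the tenth with the highest. These are correlations across genes, which are not independent replicates. The transcripts of the 10 genes had GC contents from 51.4% (Egr3) to 62.6% (Junb), at the 60.2 to 98.7 percentiles of these genes. In the first comparison the correlation with GC content was 0.14.

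With both trends removed, 1 of the 10 genes rose (Fosb) and 4 fell (Egr2, Fos, Jun and Myc), beside 28.9% of all genes called higher and 29% lower. Whether the trend came from the inhibitor or from library preparation was not tested, so both values are given for each gene.

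**Figure D3:**
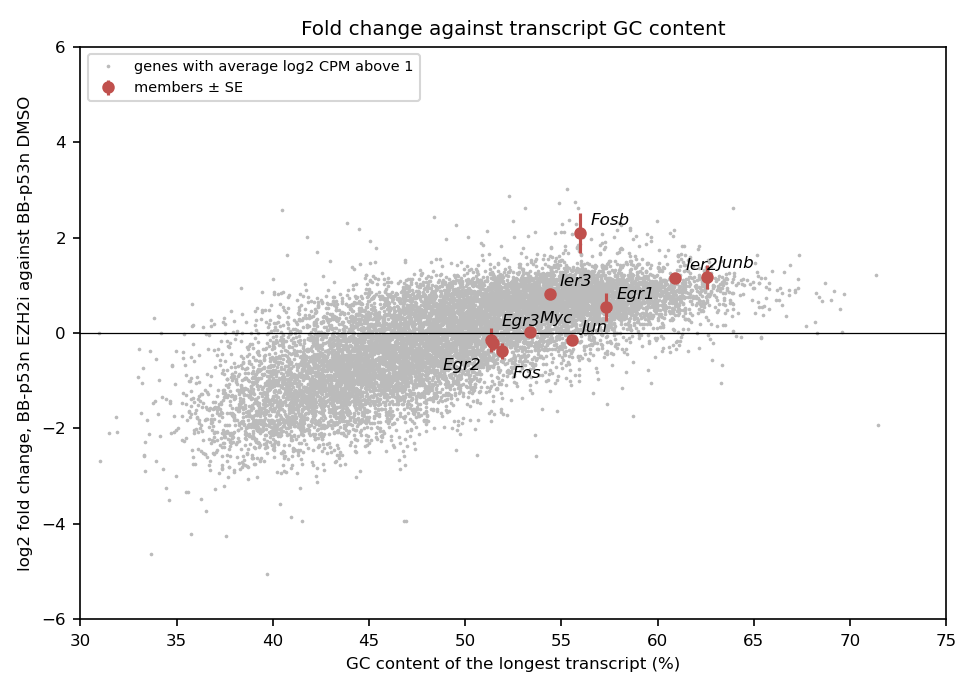
Log2 fold change of BB-p53n EZH2i against BB-p53n DMSO plotted against transcript GC content (%), for genes with an average log2 CPM above 1 (grey) and the 10 genes (red, ± SE). The cloud climbs with GC content, Fosb stands above the genes around it, and Jun and Fos lie at the 6.5 and 11.5 percentiles of the genes within 1 GC point of them.

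Fosb was at 2.50, 1.33 and 1.28 CPM with the inhibitor, against 0.33, 0.24 and 0.65 CPM with DMSO. All 3 inhibitor libraries were above all 3 DMSO libraries, and the log2 fold change was 2.09 (SE 0.42, adjusted p = 1.4e-04) as counted and 1.60 (SE 0.42, adjusted p = 0.00259) with the trend removed. It stood at the 99.2 percentile of the 1128 genes within 1 GC point of it. Those genes had an average log2 CPM above 1 and Fosb one of -0.05, so they are not matched to its level. These are low levels: Fosb had 40 counts over the DMSO group and 115 over the inhibitor group. Junb was at 4.36, 3.24 and 6.99 CPM with the inhibitor and 1.61, 2.46 and 2.37 CPM with DMSO, without overlap. Its log2 fold change was 1.18 (SE 0.25, adjusted p = 2.9e-04) as counted and 0.29 (SE 0.23, adjusted p = 0.303) with the trend removed.

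Ier2 was at 47.4, 36.7 and 42.4 CPM with the inhibitor, above the 18.5 to 19.5 CPM with DMSO. Its log2 fold change of 1.15 (SE 0.10, adjusted p = 1.8e-09) became 0.20 (SE 0.10, adjusted p = 0.104) with the trend removed. Ier3 was at 79.1, 76.1 and 91.1 CPM, above the 42.2 to 49.9 CPM with DMSO. Its log2 fold change of 0.82 (SE 0.09, adjusted p = 5.6e-08) became 0.01 (SE 0.08, adjusted p = 0.911). Genes within 1 GC point of Ier2 and of Ier3 had median log2 fold changes of 0.83 and 0.63 in the same comparison.

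Egr1 was at 225, 115 and 103 CPM with the inhibitor, against 99.7 to 105 CPM with DMSO. Replicate 1 stood far above all other libraries, and replicate 3 lay inside the DMSO range. The log2 fold change was 0.54 (SE 0.29, adjusted p = 0.131), and it was 0.10 (SE 0.07) without replicate 1 of the inhibitor group and -0.13 (SE 0.33) with the trend removed. Without replicate 3 of that group it was 0.75 and passed the test (adjusted p = 0.0437). Egr2 was at 9.43, 6.22 and 7.80 CPM and Egr3 at 2.85, 1.76 and 2.61 CPM, and in both genes the inhibitor group overlapped the DMSO group. Their log2 fold changes were -0.21 (SE 0.15) and -0.15 (SE 0.25) as counted, and -0.58 (adjusted p = 0.00229) and -0.45 (adjusted p = 0.129) with the trend removed.

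Fos was at 8.52, 4.79 and 5.80 CPM with the inhibitor and 8.92, 8.34 and 7.67 CPM with DMSO. Replicate 1 lay within the DMSO range and the other two inhibitor libraries below it. The log2 fold change was -0.37 (SE 0.17, adjusted p = 0.0554) as counted, -0.65 (adjusted p = 8.1e-04) without replicate 1, and -0.85 (SE 0.17, adjusted p = 2.2e-04) with the trend removed. Jun was at 138, 118 and 135 CPM, below the 140.5 to 154 CPM with DMSO in every library. Its log2 fold change was -0.15 (SE 0.08, adjusted p = 0.0717) as counted, -0.20 (adjusted p = 0.0213) without replicate 1 and -0.86 (SE 0.07, adjusted p = 2.4e-09) with the trend removed. Myc was at 166, 150.2 and 148 CPM, overlapping the 142 to 156 CPM with DMSO, with a log2 fold change of 0.03 (SE 0.07, adjusted p = 0.727) as counted and -0.56 (SE 0.07, adjusted p = 1.5e-06) with the trend removed.

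Replicate 1 of BB-p53n EZH2i was the highest library of its group for 8 of the 10 genes (all but Junb and Ier3), both as counted and with the trend removed. The slope of its log2 counts on GC content, relative to the mean of all libraries, was 0.62 per 10 GC points, against 0.89 and 0.82 in replicates 2 and 3. Without this library 3 of the 10 genes fell in the second comparison as counted (Egr2, Fos and Jun) and 4 rose. With all libraries kept, 35.6% of all genes were called lower there and 37.3% higher.

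The third comparison set BB-p53n EZH2i against p53n. It shares its libraries with the other two comparisons and is given beside them. Here 9 of the 10 genes rose and 0 fell, beside 40.3% of all genes called higher and 41.7% lower, and with the trend removed 6 rose and 1 fell, beside 38.2% and 40.2%. Egr1, Egr2 and Egr3 had log2 fold changes of 4.99 (SE 0.37), 3.83 (SE 0.23) and 4.67 (SE 0.43). Egr3, with its 7 counts in p53n, was at 5.71 without replicate 1 of that group. Ier3 stood at 4.37 (SE 0.11), Ier2 at 2.98 (SE 0.11) and Jun at 1.29 (SE 0.08). These 6 genes remained called with the trend removed, at 0.53 (Jun) to 4.29 (Egr1). Fosb (1.20, adjusted p = 0.00892) and Junb (1.15, adjusted p = 4.0e-04) did not, at 0.68 and 0.08, and Fosb was at 0.82 (adjusted p = 0.0933) without replicate 1 of the inhibitor group. Fos was at 0.34 (SE 0.18, adjusted p = 0.0842), and at 0.53 (adjusted p = 0.00493) without replicate 2 of that group. All 10 genes were called higher in that fit, beside 40.3% of all genes with all libraries kept. Myc was called in opposite directions, at 0.30 (SE 0.08, adjusted p = 0.00121) as counted and -0.40 (SE 0.07, adjusted p = 4.6e-05) with the trend removed.

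Levels of different genes were compared as FPKM, counts scaled to exon length and library size. In p53n the order of mean FPKM was Myc (46.4), Jun (16.7), Ier3 (3.52), Ier2 (3.51), Fos (2.17), Egr1 (1.03), Junb (0.95), Egr2 (0.16), Fosb (0.12) and Egr3 (0.019). The libraries overlapped between the neighbours Ier3 and Ier2, Egr1 and Junb, and Egr2 and Fosb. In BB-p53n DMSO the order was Myc (55.7), Jun (45.5), Ier3 (41.2), Egr1 (22.7), Ier2 (12.5), Fos (3.53), Egr2 (2.68), Junb (0.93), Egr3 (0.61) and Fosb (0.065), and only Jun and Ier3 overlapped among neighbours. In BB-p53n EZH2i it was Ier3 (72.6), Myc (56.9), Jun (40.9), Egr1 (33.0), Ier2 (27.7), Fos (2.71), Egr2 (2.30), Junb (2.11), Egr3 (0.55) and Fosb (0.27). There Jun, Egr1 and Ier2 overlapped as neighbours, as did Fos, Egr2 and Junb, and Egr3 and Fosb. Myc and Jun were thus the 2 highest in p53n and in BB-p53n DMSO, and Ier3 the highest in BB-p53n EZH2i on this scale, which carries the GC trend described above.

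The make-up of each gene family is described by shares of its summed FPKM as counted, without a test. The summed FPKM of Egr1 to Egr4 was 1.44 ± 0.20 (SD, n = 3) in p53n, 26.7 ± 0.51 with DMSO and 36.8 ± 15.4 with the inhibitor, and Egr1 made up 71.9%, 85% and 88.7% of it. In the JUN family Jun made up 31.5% ± 1.32 (SD, n = 3) in p53n, 62.3% ± 1.24 with DMSO and 44.2% ± 4.88 with the inhibitor, with Jund, the family member that is least dependent on stimulation, making up most of the rest. In the FOS family Fos made up 76.2%, 65.5% and 62.6%, and Fosl2 18.3% in p53n and 32.0% with DMSO.

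The MYC family had overlapping summed FPKM in the 3 groups, at 67.5 ± 4.37, 65.0 ± 3.24 and 67.0 ± 4.49 (SD, n = 3), while the shares of its members differed. Myc made up 68.6% of it in p53n, 85.7% with DMSO and 85.0% with the inhibitor. These sums and shares are as counted and carry the GC trend. With the trend removed, mean CPM in the same order was 152, 169 and 115 for Myc. It was 3.61, 22.9 and 11.8 for Mycn, and 97.5, 15.1 and 15.1 for Mycl. Mycl, the paralog first found in lung cancer, was at 84.5, 82.3 and 78.9 CPM in p53n and 12.3, 13.6 and 13.2 CPM in BB-p53n DMSO, a log2 fold change of -2.65 (SE 0.09, adjusted p = 4.4e-16), and its share went from 30.1% to 4.96%. Mycn, the paralog of neural progenitors and neuroblastoma, was at 3.40, 2.66 and 2.94 CPM in p53n and 19.5, 20.8 and 19.8 CPM in BB-p53n DMSO, a log2 fold change of 2.73 (SE 0.14, adjusted p = 8.3e-13), and its share went from 1.36% to 9.35%. The libraries of the 2 groups were far apart for both paralogs, and both changes were of the same size with the trend removed (-2.70 and 2.66).

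**Figure D4:**
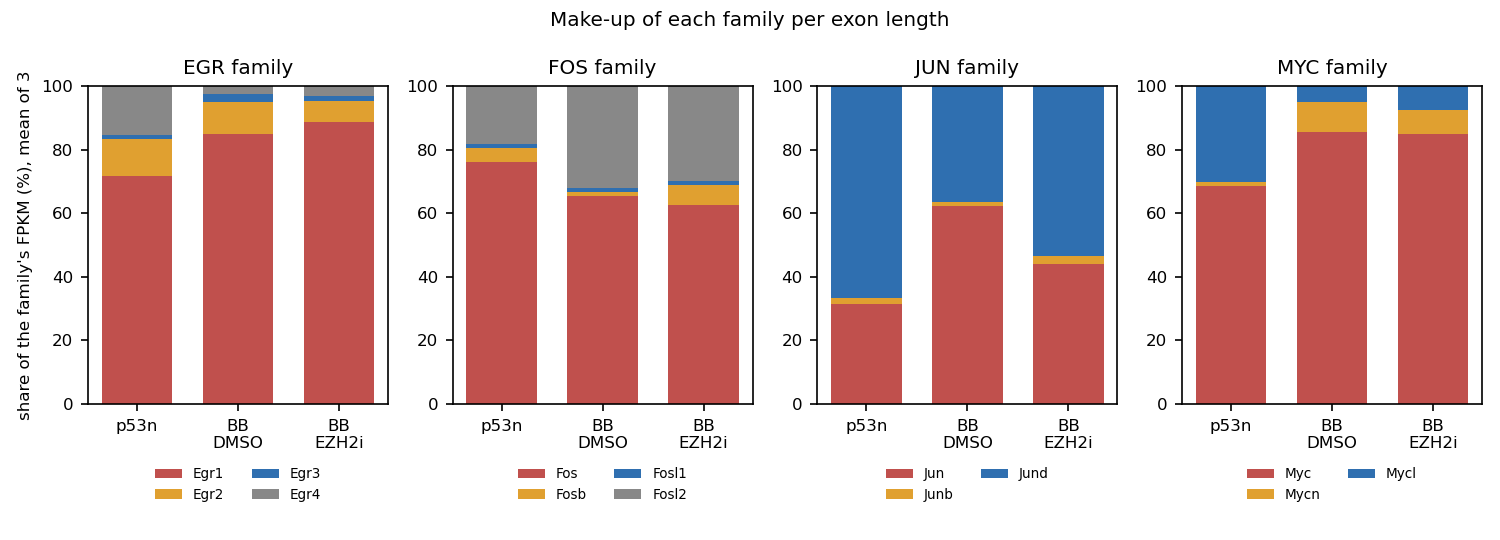
Share of each family's summed FPKM (%, mean of 3 libraries) taken by each member in the 3 groups, for the EGR, FOS, JUN and MYC families. Mycl takes 30.1% of the MYC family in p53n and 4.96% in BB-p53n DMSO, and Jun takes 31.5% and 62.3% of the JUN family.

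Of 30 other immediate early genes listed by textbook knowledge, 27 were tested, and 16 rose and 6 fell between p53n and BB-p53n DMSO (all genes 35.3% and 34%), with a median log2 fold change of 0.56. Maff, a small MAF factor, stood at 3.07 (SE 0.17), Arc, a synaptic plasticity gene, at 3.05 (SE 0.19), and Klf2, a zinc finger factor, at 2.99 (SE 0.35). With the inhibitor 15 of the 27 rose and 6 fell as counted (all genes 37.3% and 35.6%), whereas 3 rose and 7 fell with the trend removed (28.9% and 29%). Arc and the clock gene Per1 were called higher on both scales, at 1.43 and 0.60 for Arc and at 1.16 and 0.51 for Per1.

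Of the 12 factors that act on these promoters (SRF with its cofactors, the ternary complex factors and the CREB family), 8 rose and 2 fell between p53n and BB-p53n DMSO (all genes 35.3% and 34%). The CREB relatives Atf1 (1.15, SE 0.10) and Crem (0.92, SE 0.11) and the ternary complex factor Elk3 (0.89, SE 0.09) had the largest log2 fold changes. With the inhibitor 6 rose and 6 fell as counted (37.3% and 35.6%), and 2 rose and 4 fell with the trend removed (28.9% and 29%). Creb1 was at 102, 88.4 and 94.0 CPM with DMSO and 34.4, 19.2 and 28.6 CPM with the inhibitor, yet its log2 fold change of -1.78 (SE 0.17) became -0.09 (SE 0.07) with the trend removed. Atf1 and Elk4 fell on both scales, from -1.31 to -0.93 and from -1.26 to -1.07.

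Among 17 genes of the cascade from receptor to ERK, 10 rose and 3 fell between p53n and BB-p53n DMSO (all genes 35.3% and 34%), with a median log2 fold change of 0.32. Map2k1 and Map2k2, which encode the kinases of ERK, stood at 0.99 (SE 0.08) and 0.68 (SE 0.08), and Rps6ka1, an ERK-activated kinase, at 0.70 (SE 0.09). With the inhibitor 7 rose and 8 fell as counted (37.3% and 35.6%) and 7 rose and 7 fell with the trend removed (28.9% and 29%). Braf, a kinase above the MEK enzymes, was at -2.12 (SE 0.11) as counted and -0.75 (SE 0.08) with the trend removed.

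Of 9 partners and corepressors of EGR and AP-1 proteins, 5 rose and 2 fell in the first comparison (all genes 35.3% and 34%). Nab2, a corepressor that binds EGR proteins and is itself induced by them, was at 9.78, 11.9 and 9.33 CPM in p53n and 61.4, 55.7 and 58.2 CPM in BB-p53n DMSO, a log2 fold change of 2.50 (SE 0.14, adjusted p = 1.1e-09). Its paralog Nab1 was at 0.80 (SE 0.08). With the inhibitor Nab1 fell on both scales (-1.35 and -1.19), whereas Nab2 stood at 0.69 (SE 0.12, adjusted p = 1.6e-04) as counted and -0.17 (adjusted p = 0.135) with the trend removed.

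In the MYC and MAX network of 11 other genes, 4 rose and 5 fell between p53n and BB-p53n DMSO, with the rises close to the share over all genes (35.3% higher, 34% lower). Beside Mycn and Mycl, the MAX-binding repressor Mxd3 was at 2.72 (SE 0.13), going from 4.44, 2.91 and 3.87 CPM to 26.6, 25.2 and 23.0 CPM. With the inhibitor 5 rose and 3 fell as counted (37.3% and 35.6%) and 3 rose and 3 fell with the trend removed (28.9% and 29%), and Mxd3 rose on both scales (1.24 and 0.43). Of 24 textbook targets of MYC, mostly genes of ribosome production and nucleotide or polyamine synthesis, 23 rose and 0 fell in the first comparison (all genes 35.3% and 34%), with a median log2 fold change of 0.84. Mybbp1a, a nucleolar protein, stood at 1.34 (SE 0.08), Srm, the spermidine synthase, at 1.28 (SE 0.08) and Nme1, a nucleoside diphosphate kinase, at 1.27 (SE 0.07), each more than the 0.27 of Myc itself. With the trend removed 22 of the 24 rose and 1 fell (all genes 35.7% and 36.1%). With the inhibitor 14 rose and 9 fell as counted (37.3% and 35.6%) and 12 rose and 7 fell with the trend removed (28.9% and 29%), and the transferrin receptor Tfrc was at -2.08 (SE 0.13) and -0.84 (SE 0.06).

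**Figure D5:**
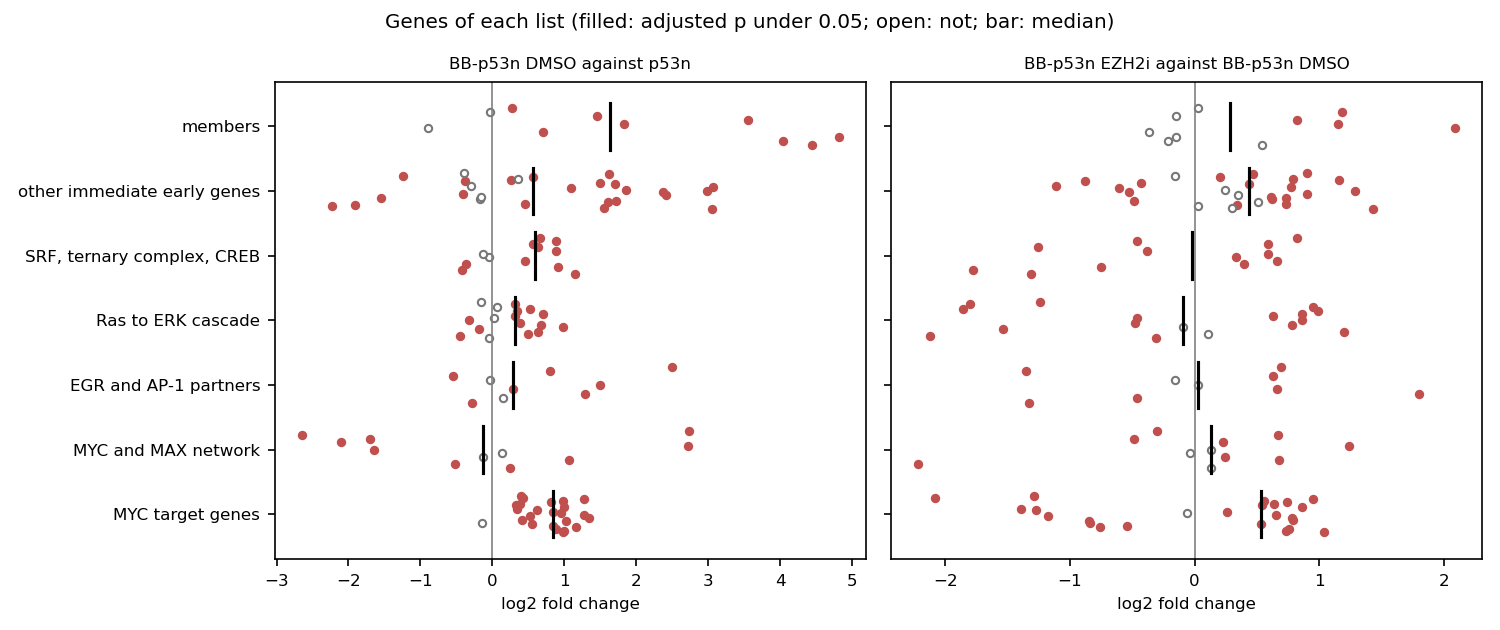
Log2 fold changes of the 10 genes (top row, named members) and of the genes of 6 related lists, in the first comparison (left) and the second (right), with filled points for an adjusted p under 0.05, open points for the others and a bar at each list's median. The MYC targets lie right of 0 in the left panel (23 of 24 called higher), and most lists spread to both sides in the right panel.

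Heat shock genes, which respond to handling of cells, were given as a further list because immediate early genes do too. Of 8 tested, 5 rose and 1 fell in the first comparison (all genes 35.3% and 34%), with a median log2 fold change of 0.27. In the second comparison 4 rose and 3 fell as counted (37.3% and 35.6%) and 3 rose and 2 fell with the trend removed (28.9% and 29%). In the first comparison the mitochondrial chaperonin Hspd1 was at 168, 165 and 175 CPM in p53n and 337, 358 and 342 CPM in BB-p53n DMSO, a log2 fold change of 1.03 (SE 0.07, adjusted p = 2.1e-11). The HSP70 cofactor Dnajb1 stood at 0.95 (SE 0.07, adjusted p = 8.8e-11) and Hspe1, the partner of Hspd1, at 0.42 (SE 0.08, adjusted p = 7.2e-05). Hspd1 and Hspe1 are also among the MYC targets given above. The HSP70 genes Hspa1a and Hspa1b had lower means in BB-p53n DMSO. They were at 1.78 and 3.21 CPM in p53n and at 0.95 and 2.44 CPM in BB-p53n DMSO. The part of handling in the levels of the 10 genes was not tested.

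The genes most like Egr1, Fos and Myc were sought by the Pearson correlation of log2 (CPM + 0.5) over the 9 libraries among 11538 other genes. For Egr1 they were Tsnax (r = 0.9975), Uba1y (r = 0.9975) and Uba2 (r = 0.9969), and 989 genes reached r of at least 0.95, beside 7 for Fos and 1 for Myc. Uba1y lies on the Y chromosome and was at 0 CPM in p53n and 3.51 in BB-p53n DMSO. For Fos they were Qrich1 (r = 0.97), Zdbf2 (0.97) and Per2 (0.96). For Myc they were Tram2 (0.95), Stat3 (0.95) and Rnf223 (0.94). The libraries fall into 3 groups, so these values describe the order of the groups more than of single libraries.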

How the data were processed

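For 9 libraries in 3 groups of 3, the authors deposited raw fragment counts per gene in 1 table. Per the file headers, counting was done with featureCounts 1.6.3 over exons, with both ends mapped, a mapping quality of at least 20 and no strand option, on Ensembl release 108 (GRCm39). Per the submitters' processing notes, Trimmomatic and Subread were also used (settings: not given in the sources used here). Each gene's exon length, also tabulated, was used for FPKM. Per the labels' protocols, 500 ng of total RNA entered each poly(A) library, read as 150 bp pairs.

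Of the 56980 identifiers, 52073 (91.4%) matched a symbol. The low-count filter was filterByExpr (edgeR 4.0.16 in R 4.3.3). It passed 17001 genes, which were scaled with TMM. One robust quasi-likelihood model with group as its only term was fitted to all libraries, and p-values are Benjamini-Hochberg values over all genes tested, called at 0.05. CPM and FPKM are TMM-scaled. For the values with the trend removed, each library's trend on the GC content and length of the longest transcript (GENCODE vM21, GRCm38, joined by gene identifier, 97.9% of the tested genes) entered the model as an offset, TMM was computed again, and 16652 genes were tested. Libraries of a group differed by more than sampling noise, so none was treated as a repeat. The fit was tested on simulated data.

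The 10 genes and the other lists were chosen with earlier results of these data known, from textbook knowledge, and support nothing by themselves. Of each other list, up to 3 called genes with the largest log2 fold change among genes whose average log2 CPM reached 1 could be named per comparison. Genes named outside this rule are the paralogs in the family shares, the sex-linked genes, Hspa1a and Hspa1b, and C1qa, C1qc and Tyrobp, named for their 0 counts. Promoter windows came from RefSeq (GRCm38.p6), and no coordinate was converted between builds. The floor of 3 counts covers counting error alone, since the labels name no molecular identifiers. Alternatives were RLE and upper quartile scaling, DESeq2 1.42.0, other filters, a replicate block, fits without sex-chromosome and mitochondrial genes, fits of 2 groups and leaving out each library.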

Additional observations from a re-analysis of the deposited data

How the results depend on the processing

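In the first comparison (BB-p53n DMSO against p53n) 7 or 8 of the 10 genes were called higher under every alternative run. Over all genes, 35.3% were called higher and 34% lower there with the main settings. The count called lower became 1 (Fosb) with upper quartile scaling, and 0 to 1 with 1 library left out. Junb, never called there, had log2 fold changes of 0.04 without a filter, 0.05 without X, Y and mitochondrial genes, and -0.13 to 0.18 with 1 library left out. In the second comparison (BB-p53n EZH2i against BB-p53n DMSO) the count called higher went from 4 to 1 with the GC and length trend removed, and to 1 with that and the replicate block. The count called lower went from 0 to 1 with RLE scaling, 1 with the replicate block, 2 without a filter, 2 with a stricter filter (average log2 CPM above 1, which leaves out Egr3 and Fosb), 2 without X, Y and mitochondrial genes, 2 in a fit of the 2 groups, 4 with the trend removed, 4 with the trend removed and the block, and 0 to 3 with 1 library left out. The 3 came without BB-p53n EZH2i replicate 1. Over all genes, 37.3% were called higher and 35.6% lower there with the main settings, and 28.9% and 29% with the trend removed. Myc was there at -0.07 without a filter, -0.01 with the stricter filter, -0.05 without X, Y and mitochondrial genes, -0.06 in the fit of 2 groups, -0.56 with the trend removed, -0.56 with the block as well, and -0.03 to 0.06 with 1 library left out. Egr1 was at -0.13 with the trend removed and -0.23 with the block as well, and Egr3 at -0.30 to 0.03 with 1 library left out. In the third comparison (BB-p53n EZH2i against p53n) the count called lower became 1 with the trend removed and 1 with the block as well, in which Myc was at -0.40 in both and Fos at -0.29 and -0.31. Over all genes, 41.7% were called lower there with the main settings and 40.2% with the trend removed. Apart from the trend removal, whose construction changes these values, the causes were not tested.

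Replicate numbers are shared between the groups. Deviations of same-numbered libraries had correlations of -0.24 to 0.39, and those of differently numbered libraries -0.37 to 0.31. Between BB-p53n DMSO and EZH2i, replicates 1 and 2 were at 0.39 and 0.31 with the same number and at -0.37 and -0.35 when crossed. Replicate 3 was at -0.04. Whether same-numbered libraries shared a batch was not tested. The replicate block alone moved the members called lower in the second comparison to 1 (Fos, -0.39), and no other count of called members. Depth limits Egr3 in p53n (7 counts in all) and Fosb (40 to 115 counts per group).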
